A study of Danio rerio with 8 samples.

Results

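Glutathione, a tripeptide, and thioredoxin, a small protein, are the thiols that keep a cell's proteins and lipids reduced, and both depend on cysteine. Glutathione is joined from glutamate, cysteine and glycine, is spent by the glutathione peroxidases and transferases, and is restored by glutathione reductase. Thioredoxin serves most peroxiredoxins and is restored by its own reductases. Cysteine can be made from methionine by transsulfuration or imported as cystine. The transcription factor Nrf2, held back by Keap1, switches on many of these genes under oxidative or electrophilic stress, and ATF4, a factor of the amino acid stress response, switches on cysteine supply and the glutathione-splitting enzyme Chac1. Roles are given below as known in vertebrates, mostly from mammals.

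The genes described here are the rows of the gene count table whose symbol begins with a name of a glutathione, thioredoxin or cysteine gene, or of Nrf2, Keap1 and the enzymes regulated with them. The pattern found 64 of 36351 rows. It also caught 3 rows by their letters alone, cth1, a zinc-finger protein gene, and cthrc1a and cthrc1b, genes of collagen triple helix repeat proteins, which leaves 61 rows of the pathway. cthrc1a was tested and did not pass (22.9 ± 2.96 CPM in the mutant and 22.1 ± 0.715 CPM in wild type), and cth1 and cthrc1b were too rarely read. Of the 64 rows 53 had enough counts to be tested, and the other 11 are described by their counts.

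Each of the 8 libraries was made from a pool of whole zebrafish embryos 26 hours after fertilisation. The 4 mutant pools were MZ osgep G177A/G177A, maternal-zygotic homozygotes for the G177A allele of osgep, the catalytic subunit gene of the tRNA-modifying KEOPS complex, and the 4 reference pools were wild-type. No drug or transgene is named for either group. Embryos came from single and group crosses, and the labels tie no pool to a clutch, so the spread behind each p-value is that between these pools and may be technical in part. Levels are CPM, a gene's count scaled to the size of its library, given for replicates 1 to 4 of each genotype in that order, and values with ± are the mean and SD of the 4 libraries of a genotype. A gene changed when its adjusted p in edgeR's quasi-likelihood test, taken over all 22467 tested genes, was under 0.05, and log2 fold changes, mutant over wild type, carry their standard error (SE).

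The libraries held 21290942 to 27675104 expected counts. The osgep transcript itself (ENSDARG00000045846) stood at 13.8, 8.38, 10.8 and 10.0 CPM in the mutant libraries, against 16.1, 20.4, 17.1 and 23.2 CPM in the wild-type libraries (log2 fold change −0.84 with SE 0.18, adjusted p = 0.00826). Reads of the alleles are summed in the table, so this level is no check of the genotype. Whole embryos were sequenced, so fewer cells of a type and less RNA per cell cannot be told apart in any value below. Of 16 skeletal muscle markers 14 fell (sum 1683 to 2162 CPM in the mutant and 5674 to 8104 CPM in wild type), of 10 neuron markers 7 fell (668 to 809 CPM in the mutant and 1101 to 1419 CPM in wild type) and of 8 tested lens markers 6 fell (5.80 to 16.8 CPM in the mutant and 33.2 to 54.6 CPM in wild type). The part of these tissues in the results below was not tested. Of all tested genes 16.3% were lower. The lens row cryba2a, at 0.153 to 0.295 CPM in the mutant and 3.52 to 6.48 CPM in wild type, reached the test through its wild-type counts. The lens row crygn2, at 0.230 to 0.643 CPM in the mutant, did so as well, and the lens count is given as a description. The pools also differed in yolk syncytial layer and liver markers, whose sum over 11 rows was 4041, 11091, 3226 and 2623 CPM in the mutant libraries, against 684, 528, 601 and 4381 CPM in the wild-type libraries. Wild-type library 4 therefore stood with the mutant libraries on these markers. The hatching gland markers, 7 rows, also put that library in the mutant range, with 1577, 1971, 1177 and 1130.4 CPM in the mutant libraries and 279, 218, 210.1 and 1406 CPM in the wild-type libraries. No yolk syncytial or liver marker row was at 0 throughout a genotype, although ttr and fabp1a averaged under 1 CPM in both. Of the 9 tested rows of that list 0 passed in edgeR, with 3 at an unadjusted p under 0.05 and 1 in DESeq2, whereas 8 passed once wild-type library 4 was left out.

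Of the 53 tested members 26 changed, 17 higher and 9 lower in the mutant pools. That is 49.1% of them, where 32.2% of all tested genes changed. The excess was on the higher side, with 32.1% of members higher against 15.8% of all tested genes, and 17.0% of members lower against 16.3% of all tested genes. The median log2 fold change of the tested members was 0.095, beside 0.0042 over all tested genes. The rows cthl, gsto1 and gpx2 reached the test through the counts of 1 genotype, so these counts and the median are given as a description. In 14 members every mutant library lay above every wild-type library and in 8 every mutant library lay below, which is 22 of 53, while the genotypes were separate in this way in 33.7% of all tested genes. With the yolk syncytial marker sum as a covariate, a fit added after the values were seen, 12 members rose and 10 fell. Over all genes the counts dropped to 2046 higher and 2003 lower. The marker sum was higher in every mutant library than in wild-type libraries 1 to 3, so covariate and genotype overlap. A call that ended in this fit cannot be assigned to either.

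**Figure D1:**
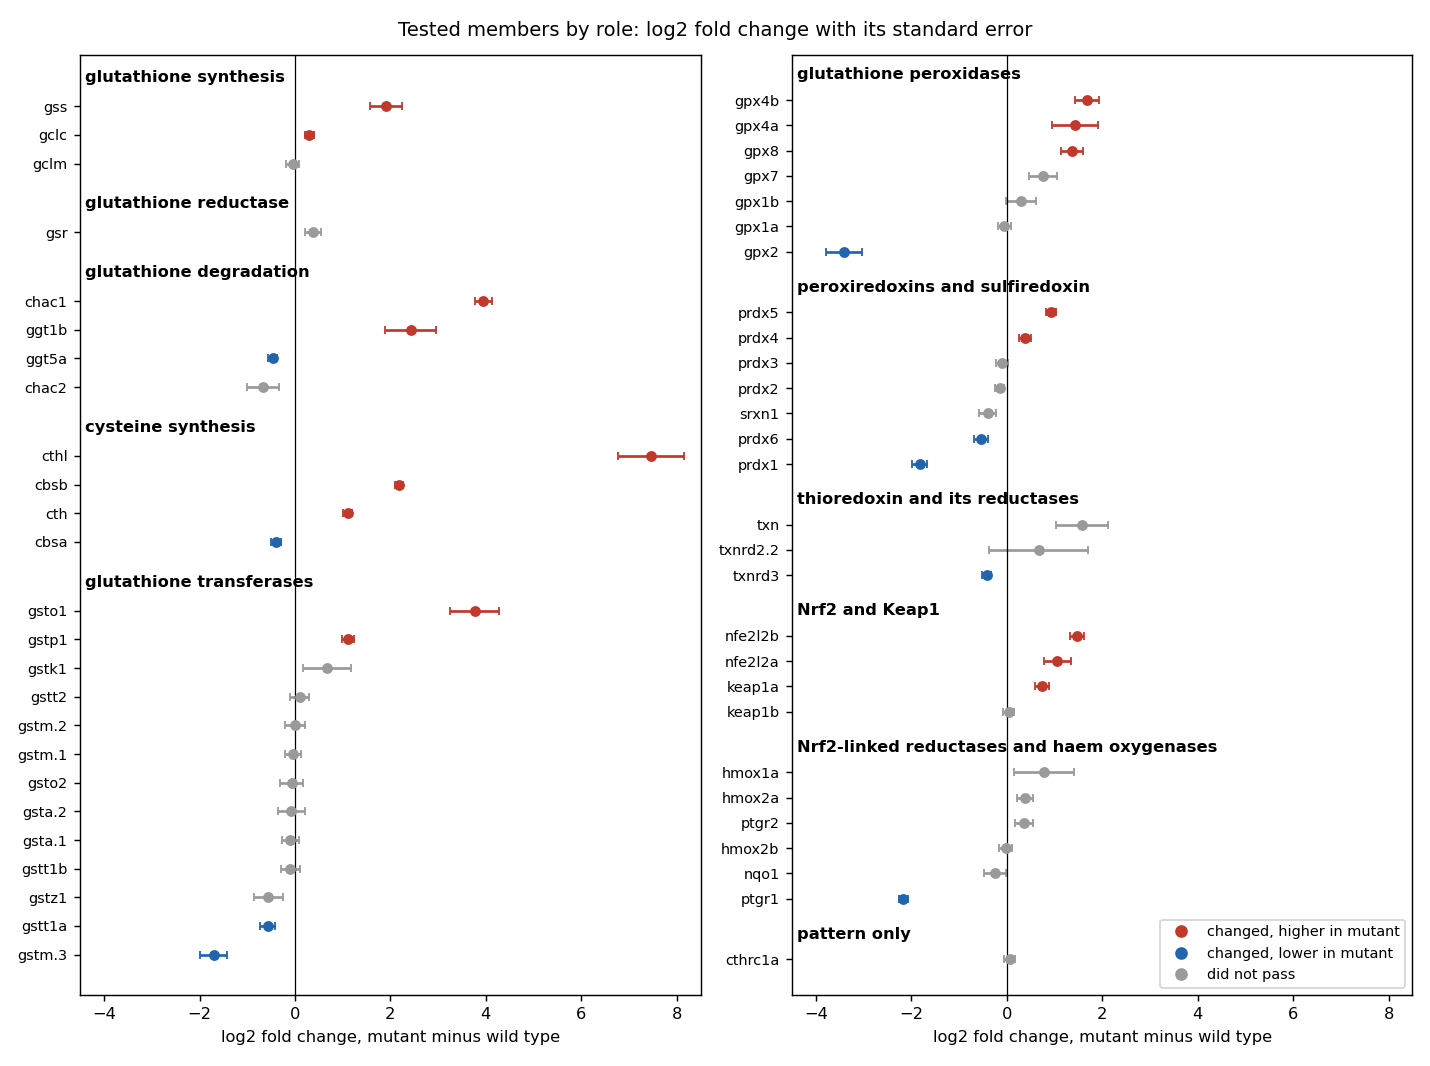
Log2 fold change, mutant minus wild type, of the 53 tested members (points) with the standard error (bars), grouped by role, with red for members that rose, blue for those that fell and grey for those that did not pass. Members of most roles lie on both sides of 0, and the largest fitted values belong to cthl, whose estimate depends on a prior count because no wild-type library held a count, and to chac1.

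Genes of both steps of cysteine synthesis from methionine rose. The first step joins homocysteine to serine in cystathionine beta-synthase, which zebrafish encode as cbsa and cbsb. cbsb (ENSDARG00000010946) measured 537, 485, 497 and 503 CPM in the mutant libraries, against 109.7, 112, 110.1 and 115 CPM in the wild-type libraries. Both groups were tight and far apart, with the mutant mean 4.52-fold the wild-type mean (log2 fold change 2.18 with SE 0.085, adjusted p = 2.05e-06). This was the smallest p among the members. The other copy went the opposite way, with cbsa at 16.6, 14.1, 15.1 and 14.8 CPM in the mutant libraries and 19.7, 19.5, 17.8 and 22.9 CPM in the wild-type libraries. The groups did not overlap, but the gap was small and the call ended without wild-type library 1 or mutant library 2, 3 or 4 (adjusted p = 0.0555, 0.0628, 0.0687 and 0.0733; with all libraries log2 fold change −0.40 with SE 0.11, adjusted p = 0.026). Summed over both rows, cystathionine synthase reads stood at 521 ± 23.4 CPM in the mutant and 132 ± 4.32 CPM in wild type (SD, n = 4 each), and cbsb supplied most of these reads in both genotypes.

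Cystathionine gamma-lyase, the second step, releases cysteine. Its gene cth had 138, 117, 130.1 and 132 CPM in the mutant libraries and 67.2, 57.0, 61.4 and 54.7 CPM in the wild-type libraries. Every mutant library was above every wild-type library, about 2.15-fold on the means (log2 fold change 1.11 with SE 0.10, adjusted p = 1.04e-04). A second gene of this name, cthl, was read only in mutant libraries, with 19, 27, 23 and 20 counts against 0, 0, 0 and 0 counts in the wild-type libraries. Its rise was 28.1-fold with 3 counts assumed over the wild-type libraries, and the counting interval starts at 22.4. cthl entered the test through its mutant counts alone, so its p is not given, and at under 2 CPM it added little to the summed level of both rows, 130.1 ± 8.93 CPM in the mutant and 60.1 ± 5.50 CPM in wild type.

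Among the enzymes that build glutathione, the last step rose most. gss, which encodes glutathione synthetase and adds glycine, measured 6.90, 10.4, 11.1 and 8.997 CPM in the mutant libraries, against 1.62, 2.23, 1.76 and 4.35 CPM in the wild-type libraries. Wild-type library 4, at 4.35 CPM, was closest to the mutant range but still below it (log2 fold change 1.90 with SE 0.33, adjusted p = 0.00306). With the yolk syncytial covariate the log2 fold change was 1.35 (adjusted p = 0.0286). gclc encodes the catalytic subunit of glutamate-cysteine ligase, the rate-limiting first step. It stood at 67.8, 63.5, 54.9 and 59.8 CPM in the mutant libraries and 52.8, 45.7, 50.4 and 50.7 CPM in the wild-type libraries, a separation with little space between the groups (log2 fold change 0.30 with SE 0.093, adjusted p = 0.0359). That call held without mutant library 3 and ended without any other single library (adjusted p = 0.0558, 0.109, 0.0843 and 0.0516 without wild-type libraries 1 to 4 in turn and 0.0533, 0.0723 and 0.0693 without mutant libraries 1, 2 and 4), and it ended with the yolk syncytial covariate (adjusted p = 0.249). The modifier subunit gene gclm overlapped between the genotypes, at 29.0, 22.7, 22.9 and 20.4 CPM in the mutant libraries and 27.6, 23.4, 24.9 and 22.4 CPM in the wild-type libraries (log2 fold change −0.048 with SE 0.13, adjusted p = 0.814). Glutathione reductase, gsr, returns oxidised glutathione to its reduced form. It was measured at 42.8, 28.4, 32.6 and 33.0 CPM in the mutant libraries and 31.7, 24.5, 27.8 and 21.3 CPM in the wild-type libraries, which overlap (log2 fold change 0.38 with SE 0.16, adjusted p = 0.11).

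The widest gap among the better-read members belonged to an enzyme that takes glutathione apart. chac1 (ENSDARG00000070426) encodes a gamma-glutamyl cyclotransferase that splits glutathione inside the cell and is a known ATF4-CHOP target in mammals. Its level was 1255, 867, 974 and 1105 CPM in the mutant libraries, against 71.3, 68.3, 78.8 and 54.4 CPM in the wild-type libraries. The genotypes were far apart in every library, and the means differed 15.4-fold (log2 fold change 3.95 with SE 0.18, adjusted p = 3.71e-06). The related gene chac2, whose enzyme acts more slowly on the same substrate, did not pass. It lay at 1.05, 0.892, 2.14 and 0.893 CPM in the mutant libraries and 1.53, 2.23, 2.096 and 2.11 CPM in the wild-type libraries (log2 fold change −0.67 with SE 0.34, adjusted p = 0.163). Mutant library 3 stood apart from the other mutant libraries for chac2, and without it the fall passed (log2 fold change −1.07, adjusted p = 0.0249).

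Outside the cell, gamma-glutamyltransferases begin the breakdown of glutathione. ggt1b measured 5.55, 16.2, 9.57 and 9.89 CPM in the mutant libraries and 1.27, 1.06, 1.00 and 4.31 CPM in the wild-type libraries. The groups did not overlap, yet wild-type library 4 was more than 3 times the other wild-type libraries and approached mutant library 1 (log2 fold change 2.42 with SE 0.54, adjusted p = 0.00938). Without that library the log2 fold change was 3.21, and with the yolk syncytial covariate it was 1.39 (adjusted p = 0.0372). ggt5a, a relative that acts on leukotriene C4 in mammals, moved the other way, at 19.6, 20.6, 21.8 and 21.1 CPM in the mutant libraries and 28.8, 29.9, 25.7 and 30.7 CPM in the wild-type libraries. These groups were separate by a small margin (log2 fold change −0.47 with SE 0.093, adjusted p = 0.00556). GGT7, which the pattern misses because the table writes it in capitals, rose (27.8 ± 4.41 CPM in the mutant and 18.2 ± 2.65 CPM in wild type, log2 fold change 0.61 with SE 0.15, adjusted p = 0.0139), a call that ended without wild-type library 2 (adjusted p = 0.0514), with the yolk syncytial covariate (0.0735) and without both libraries of highest yolk syncytial sum (0.0595). The rows ggt1a, ggt1l2.1 and ggt1l2.2 were hardly read. ggt1a had 11 counts over the mutant libraries and 5 over the wild-type libraries, ggt1l2.1 had 0 over the mutant and 1 over the wild-type libraries, and ggt1l2.2 had none in any library.

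**Figure D2:**
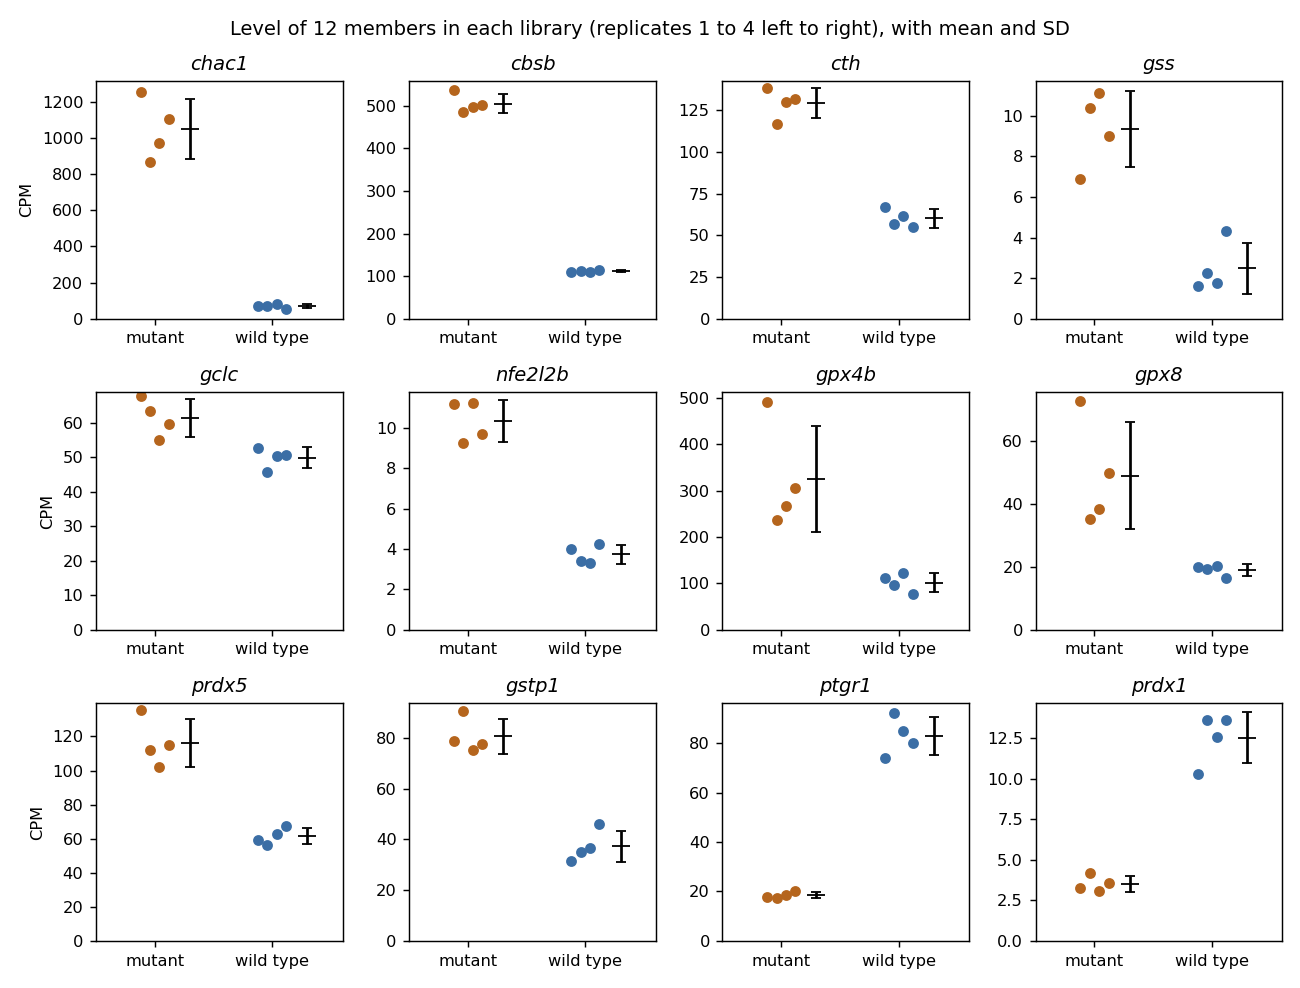
CPM of 12 members in each library, 4 mutant libraries left of 4 wild-type libraries, with the mean and SD beside them and every axis starting at 0. The 4 mutant libraries of chac1 sit between 867 and 1255 CPM and the 4 wild-type libraries between 54.4 and 78.8 CPM, while ptgr1 and prdx1 show the reverse order.

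The glutathione peroxidases split by member. Of 7 tested genes 3 rose and 1 fell, 57.1% of them, where 32.2% of all tested genes changed. gpx4a and gpx4b are the zebrafish forms of Gpx4, the selenoenzyme that reduces lipid hydroperoxides in membranes. gpx4b measured 491, 238, 266 and 306 CPM in the mutant libraries and 112, 95.6, 123 and 76.4 CPM in the wild-type libraries. All mutant libraries were higher, and mutant library 1 stood above the other mutant libraries (log2 fold change 1.68 with SE 0.25, adjusted p = 0.00142). gpx4a had 264, 397, 195 and 178 CPM in the mutant libraries, against 70.0, 49.0, 59.5 and 205 CPM in the wild-type libraries. Here the groups overlap, since wild-type library 4 was above mutant libraries 3 and 4, and the call was close to the threshold (log2 fold change 1.43 with SE 0.48, adjusted p = 0.0494). It ended without wild-type library 1, 2 or 3 (adjusted p = 0.119, 0.109 and 0.124) and without any one mutant library (0.0651, 0.121, 0.0692 and 0.0637). Without wild-type library 4 it held, at a log2 fold change of 2.12 (adjusted p = 0.00175), and with the yolk syncytial covariate the log2 fold change was 0.29 (adjusted p = 0.199). gpx4b under the same covariate kept a log2 fold change of 2.08 (adjusted p = 0.00707). The order of the 2 copies among the mutant libraries was different, with mutant library 2 highest for gpx4a and lowest for gpx4b. Their sum stood at 584 ± 138 CPM in the mutant and 197 ± 58.5 CPM in wild type.

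gpx8, which encodes a peroxidase of the endoplasmic reticulum, rose with 72.8, 35.1, 38.3 and 49.98 CPM in the mutant libraries, against 19.8, 19.5, 20.3 and 16.3 CPM in the wild-type libraries. Mutant library 1 was again the highest and the groups were separate (log2 fold change 1.37 with SE 0.23, adjusted p = 0.00231). The other peroxidase of that compartment, gpx7, had 6.44, 14.7, 14.3 and 14.5 CPM in the mutant libraries and 5.38, 8.26, 6.24 and 9.52 CPM in the wild-type libraries. Mutant library 1 lay among the wild-type libraries while the other 3 were above them all, and the difference did not pass (log2 fold change 0.76 with SE 0.29, adjusted p = 0.078). Without mutant library 1 it did (log2 fold change 0.98, adjusted p = 0.00671). gpx1a, the general cytosolic form, overlapped at 37.3 ± 6.45 CPM in the mutant and 38.6 ± 4.60 CPM in wild type, as did gpx1b at 3.12 ± 0.781 CPM in the mutant and 2.55 ± 0.915 CPM in wild type.

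gpx2, the gastrointestinal peroxidase of mammals, fell at a low level. It held 3, 2, 3 and 2 counts in the mutant libraries, against 34, 23, 18 and 31 counts in the wild-type libraries, all of which were higher. The depth-scaled mutant to wild-type ratio was 0.0893 with a counting interval from 0.0416 to 0.171. It is the 1 peroxidase counted as lower, but it reached the test through its wild-type counts, so its p is not given. gpx9 was too rarely read to be tested, with 1, 0, 0 and 0 counts in the mutant libraries and 3, 8, 4 and 10 in the wild-type libraries, a ratio of 0.0379 (counting interval 0.000922 to 0.231). gpx3, the secreted form, had 31 counts over the mutant and 27 over the wild-type libraries.

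Glutathione transferases, which attach glutathione to electrophiles, mostly gave no call. Of 13 tested rows 2 rose and 2 fell, which at 30.8% is about the share of all tested genes that changed. gstp1, the pi-class transferase and an Nrf2 target in zebrafish, rose to 78.9, 90.7, 75.4 and 77.6 CPM in the mutant libraries, against 31.6, 34.9, 36.5 and 46.0 CPM in the wild-type libraries. All mutant libraries were higher by a wide margin (log2 fold change 1.11 with SE 0.13, adjusted p = 4.07e-04). gsto1, an omega-class gene, had 43, 52, 54 and 42 counts in the mutant libraries and 6, 1, 1 and 5 counts in the wild-type libraries. The depth-scaled ratio was 13.9 with a counting interval from 7.94 to 26.6. It is counted among the 2 that rose, but it reached the test through its mutant counts, so its p is not given. Its neighbour in name gsto2 overlapped, at 6.02 ± 1.38 CPM in the mutant and 6.31 ± 1.94 CPM in wild type. The summed omega class gave 7.95 ± 1.56 CPM in the mutant and 6.45 ± 1.975 CPM in wild type.

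Of the mu-class rows, gstm.3 fell, at 2.15, 0.981, 1.76 and 1.25 CPM in the mutant libraries and 3.76, 5.52, 5.00 and 5.80 CPM in the wild-type libraries, with no overlap (log2 fold change −1.71 with SE 0.28, adjusted p = 0.00222). gstm.1, with far more reads, was at 44.1 ± 10.9 CPM in the mutant and 45.4 ± 4.94 CPM in wild type, and the summed mu class overlapped at 48.5 ± 11.4 CPM in the mutant and 53.4 ± 4.76 CPM in wild type. In the theta class gstt1a fell, with 9.80, 14.8, 10.2 and 11.1 CPM in the mutant libraries and 14.3, 18.3, 16.5 and 18.8 CPM in the wild-type libraries. Mutant library 2 overlapped the wild-type range (log2 fold change −0.57 with SE 0.16, adjusted p = 0.0261). The call ended without wild-type library 2, 3 or 4 (adjusted p = 0.0782, 0.0566 and 0.0532) and without mutant library 3 or 4 (0.078 and 0.0715). The alpha-class rows gsta.1 (65.4 ± 16.3 CPM in the mutant and 70.0 ± 10.4 CPM in wild type) and gsta.2 (9.41 ± 1.73 CPM in the mutant and 9.90 ± 4.30 CPM in wild type) did not pass. gsta.2 was called lower with the yolk syncytial covariate (log2 fold change −0.72, adjusted p = 0.0395). The other rows of these classes, gstm.2 (2.91 ± 0.235 CPM in the mutant and 2.90 ± 0.700 CPM in wild type), gstt1b (5.35 ± 1.29 CPM in the mutant and 5.72 ± 0.702 CPM in wild type) and gstt2 (5.24 ± 1.28 CPM in the mutant and 4.90 ± 0.152 CPM in wild type), did not pass. The summed theta class gave 22.0 ± 3.47 CPM in the mutant and 27.6 ± 2.03 CPM in wild type. The summed alpha class gave 74.8 ± 17.2 CPM in the mutant and 79.9 ± 9.82 CPM in wild type. gstz1, the zeta-class enzyme of tyrosine breakdown, stood at 2.02 ± 0.892 CPM in the mutant and 2.97 ± 0.400 CPM in wild type and passed as lower only in the fit without mutant library 1 among those that leave out a library (log2 fold change −0.90, adjusted p = 0.0133). gstr, a fish-specific rho-class row that the pattern leaves out, did not pass either (log2 fold change −0.10, SE 0.14).

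gstk2, a kappa-class gene of low count, was not tested. It had 61, 16, 8 and 15 counts in the mutant libraries and 0, 0, 0 and 0 in the wild-type libraries. That is 31.6-fold higher in the mutant with 3 counts assumed over the wild-type libraries, and the counting interval starts at 25.2. Most of the mutant counts came from mutant library 1. gstk1 overlapped between the genotypes (1.67 ± 0.215 CPM in the mutant and 1.04 ± 0.815 CPM in wild type), with wild-type library 4 the highest of all libraries at 2.15 CPM, and it passed as higher without that library (adjusted p = 0.0458). The rows gstk4 and gstp2 had 4 and 1 counts over the mutant libraries and 5 and 0 over the wild-type libraries. The summed kappa class, 3 rows, stood at 4.33, 2.72, 1.91 and 1.999 CPM in the mutant libraries. In the wild-type libraries this sum was 0.393, 1.17, 0.667 and 2.15 CPM. The genotypes overlapped, since wild-type library 4 was above mutant libraries 3 and 4. Reads may be divided among these similar rows, so the fold of gstk2 alone is uncertain.

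Peroxiredoxins, most of which clear hydrogen peroxide with electrons from thioredoxin, rose in 2 cases and fell in 2 of the 6 tested. Of all tested genes 15.8% were higher and 16.3% lower. prdx5, found in mitochondria, peroxisomes and cytosol, had 135, 112, 102 and 115 CPM in the mutant libraries and 59.2, 56.2, 62.9 and 67.3 CPM in the wild-type libraries, which were all lower (log2 fold change 0.92 with SE 0.11, adjusted p = 4.52e-04). prdx4, the peroxiredoxin of the endoplasmic reticulum, stood at 46.7, 54.8, 54.9 and 49.5 CPM in the mutant libraries and 33.4, 40.0, 35.7 and 48.2 CPM in the wild-type libraries. Mutant library 1 lay just under wild-type library 4 (log2 fold change 0.39 with SE 0.13, adjusted p = 0.046). The call ended without wild-type library 1, 2 or 3 (adjusted p = 0.115, 0.0867 and 0.126) and without mutant library 2, 3 or 4 (0.0989, 0.114 and 0.0825), and with the yolk syncytial covariate (0.471). On the lower side, prdx1 measured 3.24, 4.19, 3.10 and 3.57 CPM in the mutant libraries, against 10.3, 13.7, 12.6 and 13.6 CPM in the wild-type libraries. It had 28.1% of its wild-type level, with no overlap (log2 fold change −1.83 with SE 0.16, adjusted p = 1.04e-04). Like gstp1, prdx1 is a known Nrf2 target.

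The row named prdx2 carries the RefSeq name PRDX1, so the naming of this pair is uncertain. It lay at 80.2 ± 3.46 CPM in the mutant and 89.3 ± 9.37 CPM in wild type and did not pass. Both rows together gave 83.7 ± 3.42 CPM in the mutant and 101.8 ± 10.9 CPM in wild type. prdx6, the form that also acts on phospholipids, had 13.8, 9.10, 10.7 and 11.3 CPM in the mutant libraries and 15.5, 16.2, 18.7 and 14.9 CPM in the wild-type libraries (log2 fold change −0.54 with SE 0.15, adjusted p = 0.0238). The groups were separate, but the call ended without wild-type library 2 or 3 (adjusted p = 0.0545 and 0.0724) and without mutant library 2, 3 or 4 (0.0509, 0.0675 and 0.0605), and with the yolk syncytial covariate (0.247). The mitochondrial prdx3 overlapped at 66.2 ± 10.5 CPM in the mutant and 71.3 ± 4.84 CPM in wild type. Sulfiredoxin, srxn1, repairs overoxidised peroxiredoxins and is a classical Nrf2 target. It had 3.70, 3.79, 4.52 and 5.07 CPM in the mutant libraries and 4.50, 6.23, 5.43 and 6.38 CPM in the wild-type libraries, which overlap (log2 fold change −0.40 with SE 0.18, adjusted p = 0.127).

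The thioredoxin row txn overlapped between the genotypes. It measured 36.0, 79.3, 31.9 and 28.3 CPM in the mutant libraries and 8.74, 7.72, 9.48 and 32.8 CPM in the wild-type libraries. Wild-type library 4 was more than 3 times the other wild-type libraries and inside the mutant range, and mutant library 2, the library with the highest yolk syncytial sum, was the highest (log2 fold change 1.58 with SE 0.54, adjusted p = 0.0542). Without wild-type library 4 the rise passed (log2 fold change 2.34, adjusted p = 0.00316), and with the yolk syncytial covariate the log2 fold change was 0.25 (adjusted p = 0.208). The table holds a second thioredoxin row under the clone name zgc:56493, with the RefSeq name TXN, while the RefSeq name of the row txn is txnb. That second row was at 380.3, 227, 284 and 305 CPM in the mutant libraries and 479, 405, 463 and 308 CPM in the wild-type libraries, where mutant library 2 and wild-type library 4 were the lowest of their genotypes (log2 fold change −0.47 with SE 0.19, adjusted p = 0.0926). That second row passed without wild-type library 4 (adjusted p = 0.0319) or mutant library 1 (adjusted p = 0.0298), without both libraries of highest yolk syncytial sum (0.0477) and with library totals alone (0.0376). With the yolk syncytial covariate its log2 fold change was −0.046 (adjusted p = 0.897). The sum of both rows stood at 343 ± 50.3 CPM in the mutant and 429 ± 66.7 CPM in wild type.

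**Figure D3:**
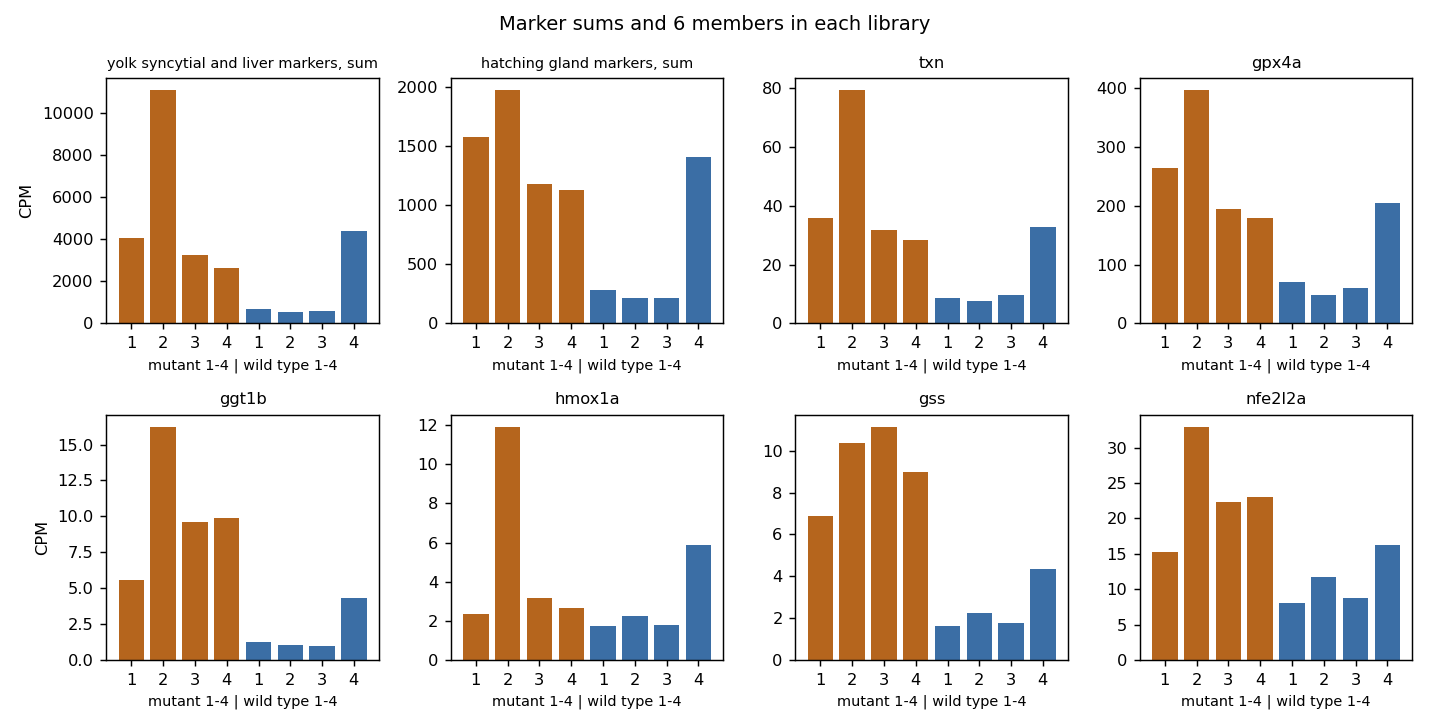
CPM in each library for the summed yolk syncytial and liver markers, the summed hatching gland markers and 6 members, with mutant libraries 1 to 4 left of wild-type libraries 1 to 4 and every axis starting at 0. Wild-type library 4 stands above the other wild-type libraries in all 8 panels, reaching 4381 CPM for the first sum and 32.8 CPM for txn, and mutant library 2 is the highest in 7 of them.

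Thioredoxin reductases are selenoenzymes that return thioredoxin to its reduced form. txnrd3 fell, at 74.5, 86.9, 89.9 and 88.5 CPM in the mutant libraries and 104, 118, 108 and 124 CPM in the wild-type libraries, and every mutant library was lower (log2 fold change −0.42 with SE 0.10, adjusted p = 0.01). The mitochondrial reductase is split over 2 rows of the same reference name. txnrd2.2 had 0, 61, 35 and 32 counts in the mutant libraries and 4, 30, 4 and 43 in the wild-type libraries, a scatter that gave no call (log2 fold change 0.67 with SE 1.04, adjusted p = 0.672). txnrd2.1 had 2, 2, 10 and 6 counts in the mutant libraries and 0, 0, 0 and 0 in the wild-type libraries. That is 6.31-fold higher in the mutant with 3 counts assumed over the wild-type libraries, and the counting interval starts at 4.67. Reads may be divided between these 2 similar rows, and txnrd2.2 was read in every wild-type library. The fold of txnrd2.1 alone is therefore uncertain, and no sum over both rows was taken.

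Of the 4 regulator genes 3 rose, where 15.8% of all tested genes were higher. Zebrafish have the Nrf2 genes nfe2l2a and nfe2l2b and the Keap1 genes keap1a and keap1b. nfe2l2b, whose product has been described in zebrafish as a repressor, rose with 11.2, 9.23, 11.2 and 9.68 CPM in the mutant libraries, against 4.02, 3.41, 3.29 and 4.23 CPM in the wild-type libraries, and the groups stood well apart (log2 fold change 1.47 with SE 0.15, adjusted p = 2.25e-04). nfe2l2a, the activator, was at 15.3, 33.0, 22.3 and 23.0 CPM in the mutant libraries and 8.13, 11.8, 8.72 and 16.3 CPM in the wild-type libraries. Mutant library 1 and wild-type library 4 overlapped (log2 fold change 1.06 with SE 0.28, adjusted p = 0.021). That call ended without wild-type library 1, 2 or 3 or mutant library 2 (adjusted p = 0.0553, 0.0501, 0.0626 and 0.0503), and with the yolk syncytial covariate (log2 fold change 0.51, adjusted p = 0.283). keap1a had 15.3, 18.1, 14.7 and 14.8 CPM in the mutant libraries and 9.35, 8.54, 8.14 and 11.8 CPM in the wild-type libraries, with no overlap (log2 fold change 0.73 with SE 0.15, adjusted p = 0.0062), although the same covariate ended this call as well (adjusted p = 0.0769). keap1b overlapped, at 28.2, 39.4, 38.4 and 35.1 CPM in the mutant libraries and 35.7, 35.2, 31.7 and 35.01 CPM in the wild-type libraries (log2 fold change 0.036 with SE 0.12, adjusted p = 0.848).

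The classical Nrf2 targets nqo1 and hmox1a did not pass. nqo1, the quinone reductase most often used as a readout of Nrf2, measured 29.4, 27.2, 19.5 and 22.2 CPM in the mutant libraries and 28.8, 20.2, 25.8 and 42.1 CPM in the wild-type libraries. The highest library was wild-type library 4 and the groups overlapped (log2 fold change −0.25 with SE 0.23, adjusted p = 0.448), and with the yolk syncytial covariate nqo1 was called lower (log2 fold change −0.74, adjusted p = 0.0418). hmox1a, the inducible haem oxygenase, had 2.36, 11.9, 3.18 and 2.64 CPM in the mutant libraries and 1.75, 2.27, 1.81 and 5.87 CPM in the wild-type libraries, where mutant library 2 and wild-type library 4 stood far above the rest (log2 fold change 0.77 with SE 0.63, adjusted p = 0.394). The constitutive forms hmox2a (33.3 ± 5.98 CPM in the mutant and 25.5 ± 4.80 CPM in wild type) and hmox2b (37.8 ± 6.31 CPM in the mutant and 38.5 ± 4.75 CPM in wild type) did not pass. With gclm and srxn1 described above, these are targets for which no change was called, and a p that misses the threshold does not show that their levels were equal. Other targets described above were called, gstp1 higher and prdx1 lower. gclc, the partner of gclm, was called higher, a call that ended in 7 of 8 fits without 1 library.

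ptgr1 had the smallest p of the members that fell. It encodes a reductase of leukotrienes, prostaglandins and reactive aldehydes that Nrf2 also induces in mammals. The mutant libraries held 17.6, 17.4, 18.7 and 20.03 CPM, against 74.1, 92.3, 84.9 and 80.0 CPM in the wild-type libraries, 22.3% of the wild-type mean (log2 fold change −2.17 with SE 0.10, adjusted p = 3.94e-06). A row with a clone name, si:dkey-11k2.7, carries the reference name ptgr1.2. It had 4, 1, 5 and 5 counts in the mutant libraries and 79, 33, 73 and 17 in the wild-type libraries, all of which were higher. This row reached the test through its wild-type counts, so its p is not given. Summed, the 2 rows gave 18.6 ± 1.25 CPM in the mutant and 85.1 ± 7.32 CPM in wild type. ptgr2, which acts on prostaglandins, overlapped at 8.66 ± 0.828 CPM in the mutant and 6.73 ± 1.80 CPM in wild type, and it passed as higher without wild-type library 4 (log2 fold change 0.55, adjusted p = 0.032).

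Genes that feed these pathways were read from lists of related functions, chosen like the members with earlier results of these data known. The methionine cycle, which supplies homocysteine to transsulfuration, rose in 9 of 14 tested genes, and the other 5 did not pass (median log2 fold change 0.64). That is 64.3% of them, where 32.2% of all tested genes changed. With the yolk syncytial covariate 8 rose. The 4 with the smallest p encode methionine adenosyltransferases and glycine methyltransferase. mat2al had 14.8 ± 1.47 CPM in the mutant and 4.10 ± 1.27 CPM in wild type, mat2ab 134 ± 36.2 CPM in the mutant and 25.8 ± 9.20 CPM in wild type, gnmt 40.0 ± 12.8 CPM in the mutant and 5.55 ± 2.53 CPM in wild type, and mat1a 138 ± 12.8 CPM in the mutant and 57.5 ± 14.1 CPM in wild type. In the supply of cystine and glutamate 6 of 15 rose and 5 fell, 73.3% of them beside 32.2% of all tested genes. The cystine importer slc7a11 stood at 13.9 ± 1.84 CPM in the mutant and 3.67 ± 1.04 CPM in wild type, its partner slc3a2b at 197 ± 14.8 CPM in the mutant and 14.1 ± 1.33 CPM in wild type, and the neutral amino acid transporters slc1a4 at 387 ± 48.9 CPM in the mutant and 31.0 ± 4.55 CPM in wild type and slc1a5 at 293 ± 37.0 CPM in the mutant and 44.2 ± 7.45 CPM in wild type. The 5 that fell were the glutamate transporters slc1a1 and slc1a2b and the glutaminases glsa, glsb and gls2b, named after their values were seen.

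Cysteine leaves the pathway towards taurine and sulfate. Of 10 genes tested for these routes 1 rose and 2 fell, 30% of them beside 32.2% of all tested genes. The riser was csad, which makes hypotaurine (73.2 ± 9.04 CPM in the mutant and 36.6 ± 2.81 CPM in wild type), and the aspartate aminotransferases got1 (65.1 ± 6.90 CPM in the mutant and 109.6 ± 16.8 CPM in wild type) and got2a (4.59 ± 0.694 CPM in the mutant and 7.95 ± 1.18 CPM in wild type) fell. A list was drawn up around the supply of NADPH, the electron source of both systems. Of its 16 tested genes 3 rose and 2 fell, close to the share of all genes. Not every enzyme of the list makes NADPH, and those of mthfd1l and tktb do not. The folate enzymes mthfd2 (198 ± 10.5 CPM in the mutant and 26.6 ± 2.51 CPM in wild type) and mthfd1l (481 ± 67.9 CPM in the mutant and 51.5 ± 23.2 CPM in wild type) and the transketolase tktb (380.3 ± 193 CPM in the mutant and 169 ± 64.6 CPM in wild type, adjusted p = 0.0351) rose, and the malic enzyme me2 fell (15.6 ± 5.23 CPM in the mutant and 58.2 ± 15.3 CPM in wild type). The pentose phosphate gene pgd also fell (log2 fold change −0.35, SE 0.11, adjusted p = 0.0446). The tktb call ended without wild-type library 1, 2 or 3 (adjusted p = 0.0903, 0.0923 and 0.0961), without mutant library 2 (0.0616) and with the yolk syncytial covariate (0.572). The count of fallers was 1 without wild-type library 2, 3 or 4 or mutant library 2, 3 or 4. Without wild-type library 4, 2 genes of the cysteine routes rose in place of 1.

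Among 20 other thioredoxin-fold and glutaredoxin genes 5 rose and 3 fell, 40% of them beside 32.2% of all tested genes. The thioredoxin-binding arrestins txnipa (444 ± 61.8 CPM in the mutant and 133 ± 13.5 CPM in wild type) and txnipb (24.4 ± 2.56 CPM in the mutant and 5.16 ± 0.789 CPM in wild type) rose. The glutaredoxin glrx (20.9 ± 3.39 CPM in the mutant and 35.5 ± 3.16 CPM in wild type) and the methionine sulfoxide reductase msrb3 (13.6 ± 1.96 CPM in the mutant and 24.3 ± 3.10 CPM in wild type) fell, and 5 genes of this list fell without mutant library 1. A list of 47 further Nrf2-linked, ferritin, membrane-bound transferase and gamma-glutamyl cycle genes had 21 higher and 4 lower, a median log2 fold change of 0.33. That is 53.2% of them, where 32.2% of all tested genes changed. ggact.3, a gamma-glutamylamine cyclotransferase row, had 1122 counts over the mutant libraries and none over the wild-type libraries. It and ggact.1, with 146 counts over the mutant and 33 over the wild-type libraries, reached the test through their mutant counts. Both are among the 21 higher, so the count, share and median of this list are given as a description. The haem transporter slc48a1a (59.6 ± 7.91 CPM in the mutant and 16.3 ± 1.14 CPM in wild type) and the aldehyde dehydrogenase aldh3a1 (13.2 ± 1.84 CPM in the mutant and 3.56 ± 0.221 CPM in wild type) rose, and the aldose reductase akr1b1 fell (3.06 ± 0.750 CPM in the mutant and 21.6 ± 4.24 CPM in wild type). The count of risers was 12 without wild-type library 2 and 9 with the yolk syncytial covariate.

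All 20 tested genes of a list of the ATF4 genes atf4a and atf4b and known targets, all outside the members, rose, with a median log2 fold change of 2.46. Of all tested genes 15.8% were higher. slc3a2b, slc7a11 and mthfd2 are on it as well as on the lists above. slc3a2b and phgdh, the first enzyme of serine synthesis (773 ± 43.0 CPM in the mutant and 76.3 ± 3.96 CPM in wild type), had the smallest p together with the transporter slc7a5 (337 ± 25.6 CPM in the mutant and 33.8 ± 2.82 CPM in wild type) and the pseudokinase trib3 (223 ± 8.68 CPM in the mutant and 46.3 ± 0.862 CPM in wild type). Superoxide dismutases, which act ahead of the peroxidases, and catalase gave 0 calls among 4 tested genes in edgeR, 0 at an unadjusted p under 0.05 and 0 in DESeq2. sod1 lay at 15.2 ± 2.90 CPM in the mutant and 18.7 ± 2.99 CPM in wild type, and cat at 3.04 ± 0.956 CPM in the mutant and 2.02 ± 0.320 CPM in wild type.

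**Figure D4:**
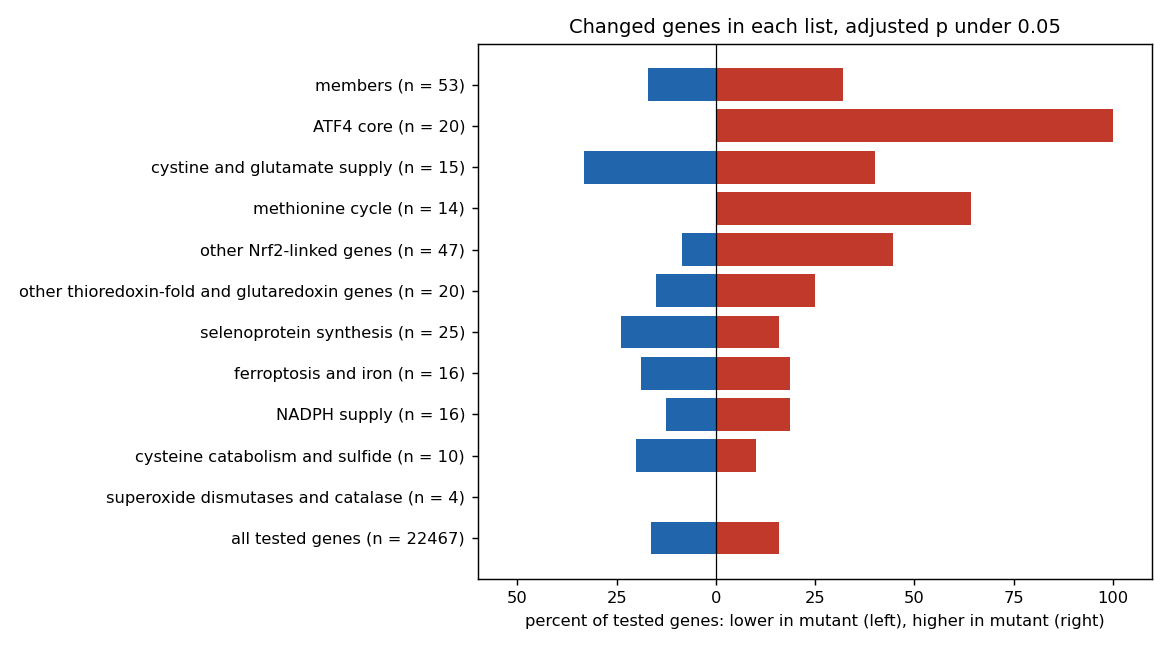
Percent of tested genes that were lower (left, blue) and higher (right, red) in mutant embryos, for the 53 members, the 10 related lists and all 22467 tested genes, which stood at 16.3% lower and 15.8% higher. All 20 genes of the ATF4 list and 9 of 14 genes of the methionine cycle were higher, and the list of superoxide dismutases and catalase has no bar because none of its 4 genes passed.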

How the data were processed

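Total RNA from pooled embryos was depleted of ribosomal RNA and sequenced on an Illumina NovaSeq, per the labels' protocols. The deposited values are expected counts per gene as the authors estimated them, unscaled between libraries, and 18.7% of them are not whole. The submitters' processing notes name Trimmomatic, STAR 2.7, RSEM and the build danRer11, while settings, annotation and strandedness stand in no source used here. Because RSEM divides reads among similar copies, single rows of paralogs (gst, gpx4, txn, txnrd2, ptgr1, prdx1 and prdx2, cbs, cth) are uncertain. Family sums are given beside them, except for gstp1 and gstp2 and for the txnrd2 rows. Of 36351 rows 4084 held no count.

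Counts were rounded to whole numbers, filtered with filterByExpr, scaled by TMM and tested with edgeR 4.0.16 (robust quasi-likelihood F test, two-sided, Benjamini-Hochberg over 22467 genes, threshold 0.05) on R 4.3.3. The SE is the size of the log2 fold change divided by the square root of F. Replicate numbers were not used as pairs, and the code was tested on simulated data. Alternatives were other scalings, no filter, no robust step, DESeq2 1.42.0, a replicate block and each library left out. Counting intervals are exact at 95% and cover counting error only, and a genotype with no count is set to 3 counts over its libraries. No 2 libraries of a genotype were alike within sampling noise, with a lowest chi-square per degree of freedom of 5.80. RefSeq names come from the annotation of assembly GRCz12tu.

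Members and lists were chosen with earlier results of these data known. Full values are given for a fixed core and for the 6 higher and 6 lower members of smallest p whose average log2 CPM is 0 or more, and for up to 4 genes of smallest p in each list. The members ggt1b, gpx7, gpx8, prdx4 and gstt1a are also given in full, outside these rules. So are the library counts of gpx2, gpx9, gsto1 and gstk2. Other genes outside these rules (GGT7, gstr, zgc:56493, si:dkey-11k2.7, pgd, sod1, cat) were looked up after values were seen.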

Additional observations from a re-analysis of the deposited data

Results flagged for a closer look

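A library far from the other 3 of its genotype was looked for in 182 groups of 4 libraries, and 19 groups held one. The groups were those of the tested members, osgep, GGT7, gstr, zgc:56493, si:dkey-11k2.7 and up to 4 genes of smallest p per list. Untested members and the other genes named were not screened. Chance alone is expected to give about 1 in 20. Of the 19 groups 10 were of members, and wild-type library 4 was the library in 5 of these 10 and mutant library 2 in 3. No cause was tested.

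Wild-type library 4 was the high library for txn (32.8 CPM), gpx4a (205 CPM), ggt1b (4.31 CPM), gsto2 (9.20 CPM) and hmox1a (5.87 CPM). Mutant library 2 was the high library for txn (79.3 CPM), hmox1a (11.9 CPM) and keap1a (18.1 CPM). chac2 stood apart in mutant library 3, at 2.14 CPM, and gpx7 was low in mutant library 1, at 6.44 CPM.

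Outside the members, mutant library 2 was low for si:dkey-11k2.7 (0.0446 CPM), at 1 count where mutant libraries 1, 3 and 4 held 4, 5 and 5. Mutant library 2 was high for tktb (669 CPM), and akr1b1 was high in mutant library 3 (4.17 CPM). Wild-type library 4 was high for mat2al (5.99 CPM), mthfd1l (86.0 CPM), ncoa4 (62.5 CPM), phgdh (82.2 CPM), slc3a2b (16.1 CPM) and tktb (265 CPM).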

How the results depend on the processing

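Of the 26 members that changed, 18 kept their call under all 16 alternatives and 8 lost it under at least 1. The 18 include cthl, gsto1 and gpx2, which reached the test through the counts of 1 genotype, so this count is given as a description. Of the tested members without a call 9 gained one under at least 1. These counts cover the 53 members tested in the main fit. Without the filter 16 members were higher and 10 lower, and 23 of these were among the 26. No call of a member reversed. Members that changed numbered 13 to 20 higher and 6 to 10 lower without 1 library, 19 higher and 9 lower in DESeq2, and 17 higher and 8 lower with the replicate block. Outside the libraries left out and the yolk syncytial fits, calls ended for cbsa (adjusted p = 0.0519), gclc (0.0598) and gpx4a (0.0733) with the block, for gpx4a (0.0648), gstt1a (0.0508) and prdx4 (0.137) with library totals alone, and for gclc, gpx4a and prdx4 without the filter. gpx7 (0.0248) and gsr (0.0457) passed with the block, and gpx7 (0.0382) and txn (0.00748) in DESeq2. All genes numbered 2630 to 4080 higher and 2680 to 4522 lower without 1 library. With the yolk syncytial covariate, chosen after seeing the data, 2046 genes were higher and 2003 lower, supply of cystine and glutamate had 2 lower, cysteine routes 1 lower, selenoprotein genes 2 higher and 3 lower, and other Nrf2-linked genes 9 higher and 8 lower. Without both libraries of highest yolk syncytial sum, also chosen after seeing the data, cysteine routes had 2 higher, NADPH supply 1 lower and the ferroptosis list 5 lower. In DESeq2 the cysteine routes had 2 higher. NADPH supply had 1 lower with library totals alone, without the filter and with the replicate block, and thioredoxin-fold genes had 5 lower with library totals alone. Without 1 library, lower genes numbered 1 to 2 in NADPH supply, 2 to 5 among thioredoxin-fold genes and 1 to 4 in the ferroptosis list, and higher genes 1 to 2 in cysteine routes and 12 to 21 among other Nrf2-linked genes. The cause was not tested, beyond the loss of a library. Same-numbered libraries deviated together with correlations of 0.65, 0.17, −0.27 and 0.09 for numbers 1 to 4. Mutant library 1 and wild-type library 1 were each other's best match, while no other library matched its own number best. The numbers were not used as pairs, and whether some same-numbered libraries shared a batch was not tested. The block gave 3525 genes higher and 3668 lower. A comparison of promoter motifs was not run. Depth limits rows such as ggt1a, gstk4, gstp2 and gpx9, with 26 counts or fewer over all libraries.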

Other observations

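Gpx4, the thioredoxin reductases and several other members are selenoproteins, built with selenocysteine on a dedicated tRNA. Of 25 tested genes of selenoproteins and their synthesis 4 rose and 6 fell, beside 32.2% of all tested genes that changed. The 4 with the smallest p were all lower. selenow2a had 178 ± 11.8 CPM in the mutant and 314 ± 25.8 CPM in wild type, selenon 42.1 ± 6.50 CPM in the mutant and 97.1 ± 16.5 CPM in wild type, selenoi 25.8 ± 0.225 CPM in the mutant and 38.4 ± 1.85 CPM in wild type, and sephs2, which makes the selenium donor, 67.4 ± 5.83 CPM in the mutant and 91.4 ± 3.84 CPM in wild type. selenon is known for its role in muscle, and 14 of 16 muscle markers fell in the same pools. The part of muscle in these values was not tested.

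Of 16 tested genes of ferroptosis and iron handling 3 rose and 3 fell. That is 37.5% of them, close to the 32.2% of all tested genes that changed. The ferritin gene fth1b (8.98 ± 0.975 CPM in the mutant and 3.67 ± 0.720 CPM in wild type) and the iron transporter slc11a2 (70.1 ± 14.3 CPM in the mutant and 39.1 ± 5.83 CPM in wild type) were higher. gch2, which makes pteridines in pigment cells, had 7.78 ± 1.85 CPM in the mutant and 48.0 ± 24.7 CPM in wild type, and ncoa4, the ferritin autophagy receptor, 43.3 ± 2.52 CPM in the mutant and 55.1 ± 4.93 CPM in wild type. The ncoa4 call ended without mutant library 3 or 4 (adjusted p = 0.0539 and 0.0581 in edgeR's test), and the list then had 1 gene lower.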
